A study of Mus musculus with 2 samples.

Results

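N6-methyladenosine (m6A) is a methyl mark placed on adenosines inside messenger RNA. A methyltransferase complex, the writer, deposits the mark: Mettl3 is its catalytic subunit, Mettl14 is the partner that stabilises it and helps to bind RNA, and Wtap is an adaptor that holds the complex in the nucleus. The demethylases Fto and Alkbh5, called erasers, can remove methyl groups from RNA, and proteins with a YTH domain bind the mark. Among these readers, Ythdf1, Ythdf2 and Ythdf3 act in the cytoplasm on translation and decay, and Ythdc1 acts in the nucleus on splicing and export. In the developing nervous system the pathway is known for its part in the timing of neural progenitor division and neurogenesis.

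The transcripts of these 9 writers, erasers and readers were examined in mouse embryo brain. The members were every probe set annotated to one of the 9 symbols, which gave 16 probe sets for 8 genes, out of 34945 probe sets and 18193 genes that carry 1 gene symbol. No probe set was assigned to Ythdf2, and it was not analysed here. The group was chosen by symbol around Mettl14, whose low KO signal in these arrays was already known, so the difference between the arrays is described and not tested. None of the 9 genes lies on the X or Y chromosome in the RefSeq annotation of GRCm38.p6.

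The study set 1 sample labelled KO (knockout) against 1 labelled WT (wild type). Both were brain of C57BL/6 embryos at embryonic day E10.5, and total RNA of each was hybridised to 1 Affymetrix 3' expression array. The labels do not name the deleted gene, the allele, the sex or the number of embryos in a sample, so no targeted gene could be used to check them. With 1 array per group there is no replicate error, and all statements below compare these 2 arrays. In bulk tissue, fewer cells of a type and less RNA per cell cannot be told apart.

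Both arrays had the same global scale, with a median signal of 13.2 in each. Differences are KO minus WT in log2(intensity + 16), which understates the change of dim probe sets. A probe set or gene passed the level filter when its higher array reached a signal of 41.6, the median level of all named genes, and 9294 genes passed. Markers of the labelled tissue were present: the 7 genes of brain progenitors read from 341 to 3998 in KO and from 430 to 4581 in WT, and the 6 genes of new neurons from 171 to 942 and from 137 to 1069. Of the progenitor genes 6 of 7 were lower in KO, with a median difference of -0.20 (-0.12 after quantile normalisation and -0.11 after a loess on level). Of the neuron genes 5 of 6 were lower, with a median of -0.27, where 50.3% of all genes passing the filter were lower. Most member differences given below are no larger than these medians.

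Some transcripts of sex and of other cells separated the arrays along with the genotype labels. Xist, the RNA of the inactive X chromosome, read 2023 in KO and 5.19 in WT, while the Y-linked genes Eif2s3y, Kdm5d and Uty read 0.27 to 2.21 in KO and 90.9 to 254 in WT. All 8 measured macrophage markers were lower in KO, where their summed signal was 33.5% of the 448 in WT. Only 3 of the 8 passed the level filter. Among all genes passing it, 50.3% were lower and 49.7% higher. Single markers read up to 88.1 in KO and from 13.7 to 187 in WT, and the lowest was C1qa in KO at 1.0. All 5 endothelial genes were lower, with a median of -0.16, or -0.10 over the 4 that passed the filter. Of the 5 genes of head mesenchyme 4 were higher, with a median of 0.18. The 6 red cell genes were split, with Alas2 (0.42), Epor (0.38) and Gata1 (0.33) higher and the 3 embryonic globins lower, the lowest being Hba-x (-0.19). Epor did not pass the filter. Whether any of these differences has a part in the values below was not tested.

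The writer complex held the one large difference. Mettl14, which has a single probe set (1454751_at), read 42.8 in KO and 221 in WT. The KO signal was 19.3% of the WT signal and stood just above the level filter, and the difference was -2.02. Mettl3, also with 1 probe set, read 358 in KO and 400 in WT, a difference of -0.15. The transcript signal of the catalytic subunit was therefore at 89.5% of WT in the array in which that of its partner was at 19.3%.

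Wtap was measured by 2 probe sets, which read 650 and 616 in KO against 683 and 691 in WT. Their differences of -0.07 and -0.16 had the same sign. All 4 probe sets of these 3 writer genes were lower in KO, where 51.0% of all named probe sets passing the filter were lower. Of the 4, 1 is the Mettl14 probe set, and those of Mettl3 and Wtap were lower by small amounts.

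**Figure D1:**
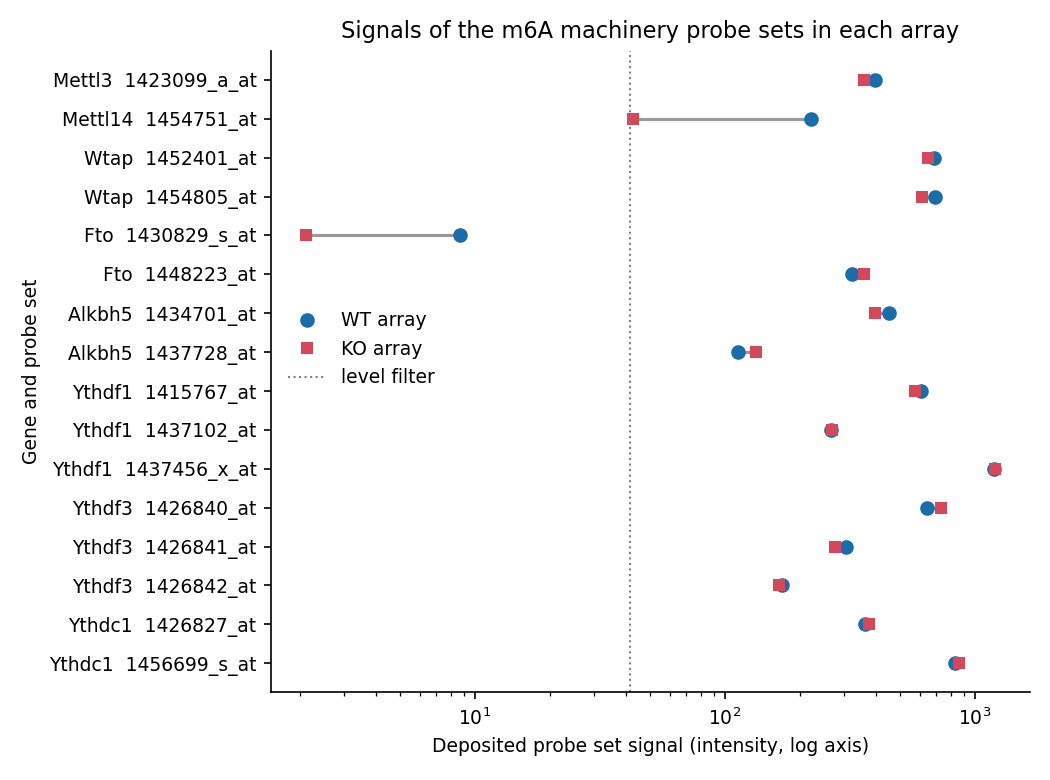
Deposited signal (horizontal log axis, intensity) of each of the 16 probe sets of the m6A writers, erasers and readers, with 1 row per probe set. Circles are the WT array, squares the KO array, and the dotted line is the level filter at a signal of 41.6. Mettl14 is far apart at 42.8 and 221, the Fto probe set 1430829_s_at lies below the filter in both arrays, and the other pairs nearly overlap.

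The erasers showed no common direction. Fto, the demethylase first known from its link to body weight, read 361 in KO and 322 in WT on probe set 1448223_at, a difference of 0.16. Its other probe set (1430829_s_at) read 2.10 and 8.70, and it was the only member probe set that did not pass the filter. On the log2(intensity + 16) scale that dim pair differed by -0.45, and with a pseudocount of 1 by -1.65, so its size is set by the pseudocount.

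Alkbh5, the other demethylase, also had 2 probe sets, both above the filter. The first (1434701_at) read 396 in KO and 454 in WT, a difference of -0.19. The second (1437728_at) read 133 and 112.5, a difference of 0.22. The pair disagreed in sign and spanned 0.41, a wider span than in 88.5% of the 3627 genes that had 2 or more probe sets above the filter. No direction is given for Alkbh5.

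The YTH readers were close to level. Ythdf1, linked to translation of marked RNA, read 574, 267 and 1204 in KO against 608, 265 and 1186 in WT on its 3 probe sets. The differences were -0.08, 0.0058 and 0.02. Ythdf3, which works with the other cytoplasmic readers, read 733, 274 and 164 in KO against 642, 304 and 169 in WT. Its differences of 0.19, -0.14 and -0.04 did not share a sign. Ythdc1, the nuclear reader, read 376 and 861 in KO against 363 and 835 in WT, and its differences of 0.05 and 0.04 were within 0.0067 of each other.

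Each of the 8 measured genes was next given 1 value, that of its brightest probe set over both arrays. Of these genes, 4 were higher and 4 lower in KO, where 50.3% of all genes passing the filter were lower. The median difference was -0.02, and the median over all genes above the filter was -0.00064. Only Mettl14 was at least 2-fold apart, 1 gene of 8. Among all 9294 genes passing the filter, 0.323% were at least 2-fold apart and 0.0861% at least 2-fold lower. At 1.5-fold Mettl14 was again the 1 member, beside 1.42% of all genes. Since the group was chosen with the Mettl14 value known, nothing is read from that count.

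Without Mettl14, the other 7 genes had a median difference of 0.02 and a range from -0.19 to 0.19. On the level of probe sets, 14 of the other 15 passed the filter, 7 of them higher and 7 lower, where 51.0% of all named probe sets passing the filter were lower. All 14 lay within 0.25 of 0 in either direction, as did 86.5% of all named probe sets passing the filter and 91.2% of the 7866 in the same range of levels. The gap from Mettl14 to the next lowest member probe set above the filter was 1.82.

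**Figure D2:**
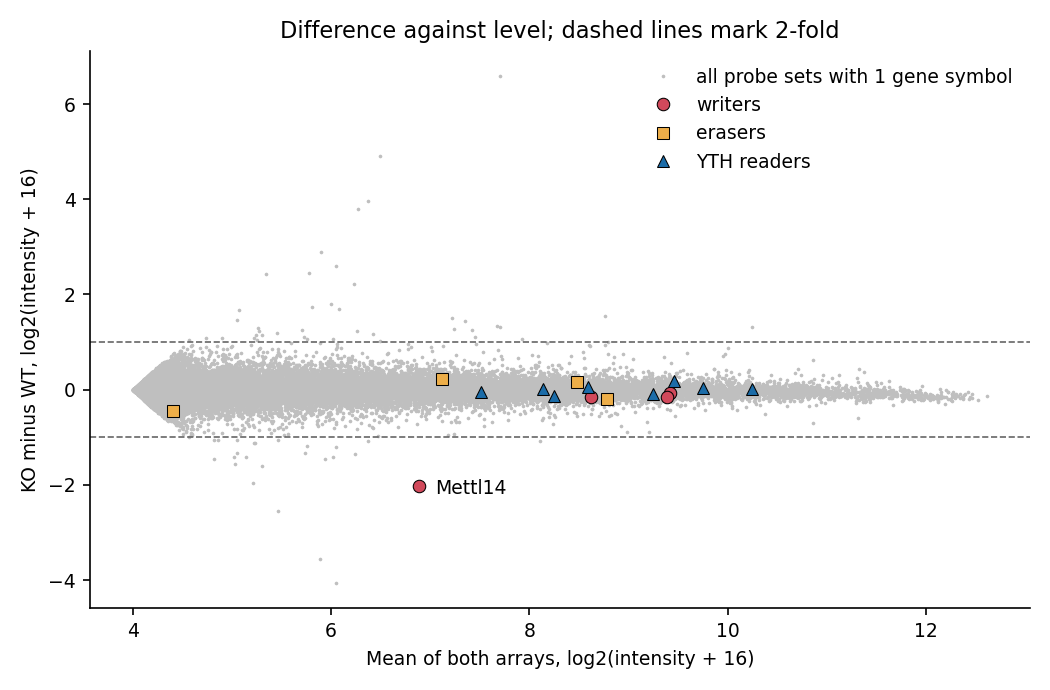
Difference between the arrays (vertical axis, KO minus WT in log2(intensity + 16)) against the mean of both arrays on the same log2 scale, with 1 grey point for each probe set that has 1 gene symbol. Coloured symbols are the writers, erasers and YTH readers, and dashed lines mark 2-fold. Mettl14 lies at -2.02, below the grey band, and the other members above the level filter lie within it between -0.19 and 0.22.

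Mettl14 had the fourth lowest difference among the genes passing the filter. Only Eif2s3y (-4.05), Kdm5d (-3.56) and Uty (-2.55), all Y-linked, were lower, so Mettl14 was the lowest of the genes off the Y chromosome on this scale. The same held under the 10 other settings tried, except at a pseudocount of 1, where Mrc1 was lower as well (-3.96). Of the 2121 other probe sets whose mean level was within 0.25 log2 units of its own, 0 were at least 2-fold lower. Their robust SD was 0.16, their central 95% ran from -0.34 to 0.42, and the lowest stood at -0.78. These figures give the spread over probe sets within a pair of arrays and hold no variation between embryos. The group was chosen with the Mettl14 value known, so its rank and its distance from this spread are a description only.

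The 3 genes with the difference closest to that of Mettl14, over 2 arrays, were Mrc1 (-1.97), Uty (-2.55) and C1qb (-1.33). Mrc1, the macrophage mannose receptor, read 2.76 in KO and 57.5 in WT. C1qb, a complement subunit made by macrophages, read 17.7 and 68.4. A likeness over 2 arrays says only that the ratios were of similar size.

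The Mettl14 value rests on 1 probe set, so the behaviour of other far-apart probe sets was examined where a second one existed. Among all named probe sets passing the filter, 51 (0.344%) were at least 2-fold apart, and 25 of them had another passing probe set of the same gene. The mean of the others had the same sign in 18 of the 25 and reached at least 0.5 of the size in 8. These are counts of probe sets and not of separate genes. The 8 came from Xist, Fgf17 and Desi1, each counted on several probe sets, and from C1qb. Among the 25, 8 were lower in KO. For these, the mean of the others had the same sign in 6 and reached 0.5 of the size in 1, C1qb. No second probe set exists here for the same comparison on Mettl14.

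The genes next to Mettl14 in the RefSeq gene order were not lower by a like amount. Sec24d, a coat protein gene of vesicles leaving the endoplasmic reticulum, read 60.1 in KO and 45.3 in WT (0.31). Prss12, a neuronal serine protease gene on the other side, read 49.3 and 50.9 (-0.04). Around all 9 genes, the nearest measured protein-coding gene was taken on each side, 18 in all. Of these, 10 passed the filter, with differences from -0.21 to 0.31, and 0 were at least 2-fold apart.

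Beyond the members, further genes of the m6A pathway, with relatives of its enzymes and their methyl donor supply, were taken from lists covering 61 genes, of which 58 were measured and 51 passed the filter. Of the 58 genes, 30 were higher and 28 lower, with a median of 0.0045 against 0.0011 over all genes. Of the 51 above the filter, 0 were at least 2-fold apart in either direction with 1 value per gene, taken from its brightest probe set. Igf2bp2, Cnot1 and Mat2a were not analysed here.

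Of the 5 accessory subunits of the methyltransferase complex, 4 were lower on their brightest probe sets, with a median of -0.10. Among all genes passing the filter, 50.3% were lower. Zc3h13, which anchors the complex in the nucleus, had the largest of these differences at 115 in KO and 158 in WT (-0.42), and its other 2 probe sets differed by -0.17 and -0.03. Cbll1, a ubiquitin ligase-like subunit also called Hakai, read 274 and 327 (-0.24), while its second probe set was higher by 0.09. Virma, the large scaffold, differed by -0.10 and -0.01 on its 2 probe sets. The RNA-binding adaptors Rbm15 and Rbm15b differed by -0.01 and 0.19.

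Methyltransferases that act outside this complex were split, 3 higher and 3 lower, with a median of 0.0071. Mettl16, which methylates a small nuclear RNA and the Mat2a transcript, read 216 in KO and 200.2 in WT (0.10). Mettl5, the enzyme for a site in small-subunit ribosomal RNA, read 369 and 321 (0.19), and its partner Trmt112 read 1805 and 1896 (-0.07). Zcchc4, the enzyme for large-subunit ribosomal RNA, was at 0.09, Pcif1, which methylates the adenosine next to the cap, at -0.13, and Mettl4 at -0.19.

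Across the methyltransferase-like family, named for a shared fold and acting on many substrates, 17 of 24 genes passed the filter and 12 of the 17 were higher, beside 49.7% of all genes passing the filter. The 24 include Mettl16, Mettl5 and Mettl4, already counted above. The median of those 17 was 0.07. Mettl23, a histone arginine methyltransferase gene, stood farthest out at 191 in KO and 122 in WT (0.58), and a second probe set read 131 and 65.6 (0.85). Both Mettl23 probe sets above the filter were therefore higher, the opposite direction to Mettl14. The next in size was Mettl7a1 at 0.24.

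**Figure D3:**
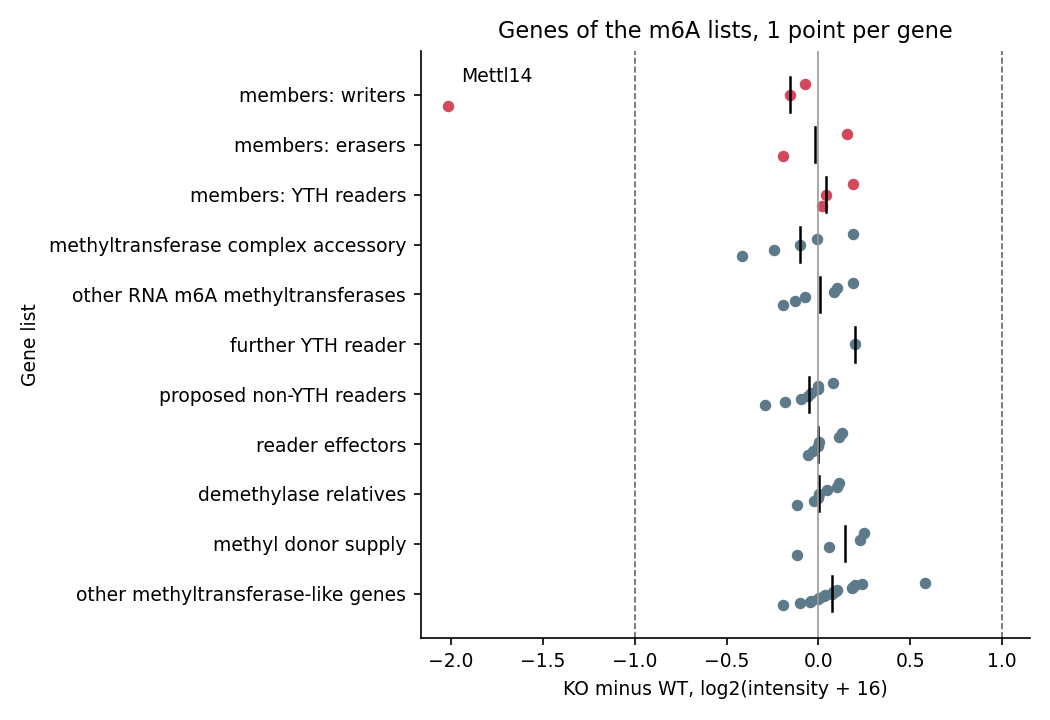
Difference between the arrays (horizontal axis, KO minus WT in log2(intensity + 16)) for each gene above the level filter, by list. A point is 1 gene at its brightest probe set, the short vertical bar is the list median and dashed lines mark 2-fold. Apart from Mettl14 at -2.02, every point lies between -0.42 (Zc3h13) and 0.58 (Mettl23).

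Readers without a YTH domain differed little, and their direction depended on the scaling. Of 8 genes, 7 were lower with a median of -0.05, beside 50.3% of all genes passing the filter, but 5 were lower after quantile normalisation and 6 after the loess, with medians of -0.02 and -0.01. Hnrnpa2b1, an abundant nuclear RNA-binding protein, read 3729 in KO and 4231 in WT (-0.18, with -0.05 after quantile normalisation and -0.09 after the loess). Hnrnpc, of the same kind, read 3213 and 3428 (-0.09), and it turned to 0.02 after quantile normalisation.

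Several of these genes also gave unlike values on different probe sets. Rbmx, an X-linked RNA-binding protein gene, read 364 in KO and 449 in WT (-0.29), and its other probe sets above the filter differed by -0.65 and -0.03, a span of 0.62 that is wider than in 97.4% of genes. Elavl1, a stabiliser of RNAs, differed by -0.04, -0.27 and 0.24, a span of 0.50 that is wider than in 94.0% of genes. Fmr1, also X-linked, and Prrc2a each had 1 probe set above the filter, at -0.06 and -0.0044. Ythdc2, the YTH helicase known from meiosis, read 128 and 110 (0.20).

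The widest spans among these readers were those of the Igf2bp genes, which are described further for that reason, noticed after the values were seen. Igf2bp1, a stabiliser of target RNAs in embryonic tissue, was level on its brightest probe set, at 1229 in KO and 1160 in WT (0.08). Probe set 1449210_at of the same gene read 173 and 383 (-1.08). Probe sets 1418761_at and 1459825_x_at read 559 against 326 (0.75) and 229 against 125 (0.80). A span of 1.88 or more was found in 2 of the 3627 genes with several probe sets above the filter, and Igf2bp1 is 1 of them.

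Igf2bp3, its close relative, read 949 in KO and 949 in WT on its brightest probe set. Probe set 1433731_at read 614 and 297 (1.01), and the other 4 differed by values from -0.13 to 0.26. With a pseudocount of 64 the outlying Igf2bp1 and Igf2bp3 probe sets stood at -0.92 and 0.91, under 2-fold. These were the 2 probe sets at least 2-fold apart among 98 above the filter in the lists, a share of 2.04% beside 0.344% over all named probe sets. As several probe sets of the same gene disagree, no direction is given for either gene.

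**Figure D4:**
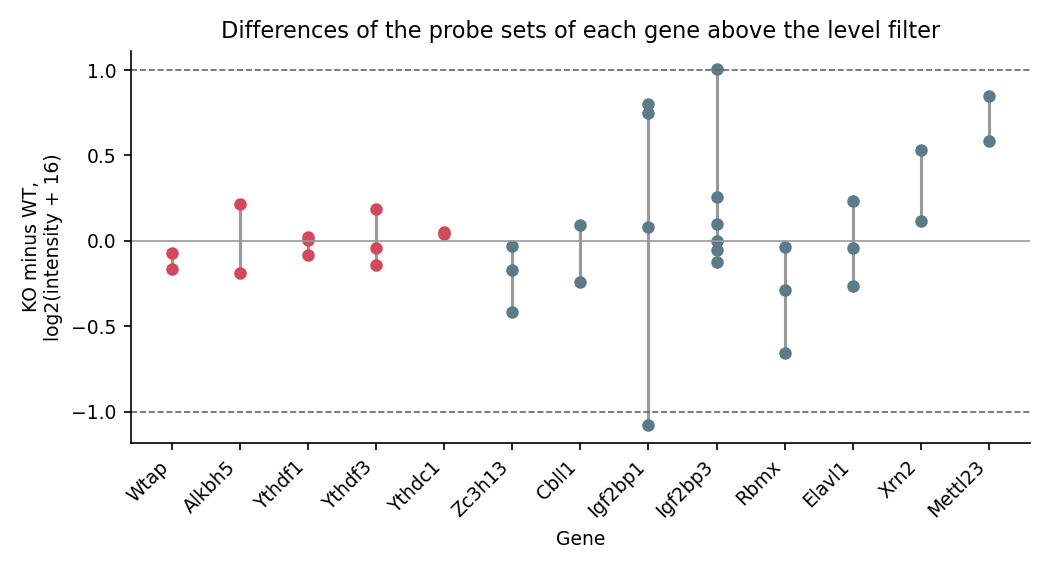
Difference between the arrays (vertical axis, KO minus WT in log2(intensity + 16)) of every probe set above the level filter for 13 genes with at least 2 of them. The first 5 are members of the m6A machinery and the rest come from the lists, the line joins the lowest and highest probe set and dashed lines mark 2-fold. Igf2bp1 spans from -1.08 to 0.80, whereas Ythdc1 and Wtap span less than 0.1.

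Transcripts of proteins that act downstream of the readers were split. Of 6 measured effector genes 3 were higher and 3 lower, and on their brightest probe sets all lay between -0.06 and 0.13. Cnot7 and Cnot8, deadenylase subunits, differed by 0.0048 and -0.06, the decay helicase Upf1 by -0.03, Ago2, the small-RNA effector, by -0.0044, and the exonucleases Xrn1 and Xrn2 by 0.13 and 0.11. A second probe set of Xrn2 read 123 in KO and 80.2 in WT (0.53), and a second one of Ago2 161 and 135 (0.23).

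Relatives of Alkbh5 were equally close on their brightest probe sets, with all 7 between -0.12 (Alkbh2, a DNA repair demethylase) and 0.11 (Alkbh4). Their median was 0.0043, with 4 higher against 3 lower, which became 3 against 4 after quantile normalisation or the loess. Other Alkbh4 probe sets above the filter differed by 0.27 and 0.02. Genes that supply the methyl donor S-adenosylmethionine had a median of 0.14 over 4 measured members. Mat2b, the regulatory subunit of its synthase, read 550 in KO and 460 in WT (0.25), and Mtr, methionine synthase, 102 and 85.0 (0.23). Ahcy, which clears the by-product of methylation, differed by 0.06, and its relative Ahcyl1 by -0.12. Other Ahcyl1 probe sets above the filter differed by -0.11 and 0.10.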

How the data were processed

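Values came from the series' single table, in which the authors deposited linear probe set intensity values for 45101 probe sets in 2 arrays. They were made with Affymetrix Expression Console, per the submitters' processing notes, and the summary algorithm is not given in the sources used here. The mean without the lowest and highest 2% of probe sets was 100.0 in both columns. The table used here holds no detection calls, so dim signals could not be called present or absent. The number of arrays, 1 per group, limits the precision, and no test between groups was made.

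Arrays were scaled to the same median and values taken as log2(intensity + 16), although the plan also allowed for log2 values. Gene symbols came from the platform annotation, and 34741 of 34945 probe sets with 1 symbol matched RefSeq (GRCm38.p6) by Entrez number. Control probe sets, and the 932 probe sets with several symbols, named no gene. Each gene took the value of its probe set with the higher mean over both arrays than any other. The members, lists and thresholds were chosen with earlier results of these data known. Named were all members, the listed pathway genes, the nearest measured neighbours, the 3 genes closest in difference to Mettl14, and the sex-linked check genes, of which Ddx3y was not analysed here. Alternatives changed the scaling, the pseudocount (or a floor in its place), the fold and level thresholds, and the choice among several probe sets. The procedure was tested on simulated data. Python 3.11.15 was used, with pandas 2.3.3, numpy 2.4.6, matplotlib 3.10.9 and, for the loess, statsmodels 0.14.6.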

Additional observations from a re-analysis of the deposited data

How the results depend on the processing

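No paired analysis was possible because KO and WT have 1 array each, and for the same reason no replicate was left out. Mettl14 was the member gene at least 2-fold apart under the main setting and all 10 alternatives, 1.5-fold threshold included. Some alternatives could not change that. With 1 probe set, its value is the same under the mean and median rules. A gene already counted also stays so without the filter or at 1.5-fold. The Mettl14 difference was -2.03 after quantile normalisation, -2.03 after loess, -2.35 at a pseudocount of 1, -1.42 at one of 64 and -2.37 with a floor of 20. Of 49 recomputed values of the other 7 members, 44 moved by less than the SD of 0.17 between probe sets of a gene. The 5 that moved came from the rule for several probe sets. Fto was -0.15 by the mean and -0.45 by the median probe set, Alkbh5 was 0.01 by the mean, and Ythdf3 was 0.0014 and -0.04. For a gene with 2 probe sets, the median rule took the lower difference. The Fto value of -0.45 is thus that of its dim probe set below the filter. The median over the 8 genes lay between -0.16, from that median rule, and 0.0037, after loess. In the lists 0 genes were at least 2-fold apart under all 10 alternatives, the 1.5-fold threshold included. That 1.5-fold count used the main pseudocount, at which Mettl23 fell just short, at 0.582 on its brightest probe set. By signal, KO was 1.56 times WT on that probe set, and its difference was 0.64 at a pseudocount of 1. On the other Mettl23 probe set above the filter, KO was 1.99 times WT. Counts of probe sets in the lists, recomputed as a choice made after seeing the data, were 2 but for 0 at a pseudocount of 64 and 6 at 1.5-fold. Over all genes the count of 30 was 52 at a pseudocount of 1, 13 at one of 64, 59 with the floor, 9 with a 75th-percentile filter and 132 at 1.5-fold.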
